A study of Homo sapiens with 6 samples.

Results

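The HOX genes described here are the protein-coding genes of the HOXA, HOXB, HOXC and HOXD clusters that have a named row on the array, 27 of the 14779 genes tested. They were chosen by symbol alone, and for HOXD4, the one member with 2 rows, the row with the higher mean over the 6 arrays was used. All 10 HOXB genes and all 9 HOXD genes were measured, 7 of 9 HOXC genes, and 1 of 11 HOXA genes, HOXA2. The other HOXA genes, HOXC5 and HOXC6 were not analysed here, so the HOXA cluster is represented by a single gene. The cells were BE(2)-C, an established human neuroblastoma line, in culture for 2 days with the vehicle DMSO (3 samples, a, b and c) or with 10 µM NCT-503 (3 samples, a, b and c), an inhibitor of PHGDH, the entry enzyme of serine synthesis. All samples come from this one line, and each was hybridised to its own single-colour Affymetrix whole-transcript array. The series' design text calls the samples independent without saying whether they were separate cultures, and the p-values given here cover only the spread among these 6 samples, which may be technical.

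HOX genes encode homeodomain transcription factors that give cells their position along the head-to-tail axis. Within a cluster the genes are numbered in order: low numbers are active early and towards the head, high numbers late and towards the tail, and genes with the same number in different clusters are paralogs. Retinoic acid helps to open the clusters, Trithorax proteins keep active genes on, Polycomb proteins keep silent genes off, and HOX proteins bind DNA with cofactors of the PBX and MEIS families. Sympathetic neuroblastoma descends from trunk neural crest, whose HOX code is set by axial level.

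The median row of an array had a deposited log2 value of 4.30 to 4.33. Arrays of one group correlated at 0.990 to 0.993 (Pearson, across rows) and arrays of different groups at 0.971 to 0.972. The number of arrays limits the precision. Of 11 defining markers of sympathetic neuroblastoma, 8 were measured, with DMSO levels from 6.05 (TH) to 10.15 (CHGB). With NCT-503, 3 of these 8 rose and 4 fell, where 16.4% of all genes were called higher and 17.1% lower. Calls are more frequent among bright genes. In bins 7 to 10 of 10 bins of genes by mean level, 17.7% to 33.0% were called higher and 24.3% to 31.3% lower. CHGA fell by 1.23 and CHGB by 1.13, and PHOX2A rose by 0.75 (limma, adjusted p = 0.000116, 0.000109 and 0.000693). GATA3 rose by 0.37 (0.0135). When single arrays were left out, the calls of HAND2 (adjusted p up to 0.128), ISL1 (up to 0.0742) and DBH (up to 0.0605) were lost in 4 or more of 6 fits. All 4 measured Schwann and glial markers lay between 3.73 and 4.53. The 4 measured mesenchymal or stromal markers ran from 3.12 (YAP1) to 7.12 (TWIST1); with NCT-503 TWIST1 fell by 0.68 and PRRX1 rose by 0.39 (adjusted p = 0.00212 and 0.0146). CD14, the one blood marker measured, stood at 3.43. Sums of the log2 values over each list, which are not sums of RNA amounts, were taken on the single arrays. These sums were 71.3 to 71.9 in DMSO and 69.5 to 70.3 with NCT-503 for the sympathetic markers. They were 16.8 to 17.5 and 17.1 to 17.6 for the glial list, and 18.9 to 19.3 and 18.5 to 18.9 for the mesenchymal list. Their part in the HOX values was not tested, and in bulk samples fewer cells of a type and less RNA per cell cannot be told apart.

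In vehicle-treated cells the brightest HOX rows belonged to the HOXC cluster. HOXC8, HOXC4 and HOXC10 stood apart from the other members, HOXC9, HOXC12 and 6 of the 9 HOXD rows were brighter than 40.9% to 54.8% of all genes tested. HOXD1, HOXD12 and HOXD13 (24.4% to 34.6%) lay among the HOXB rows (7.65% to 35.9%), and HOXA2 at 8.79%. A level on this array also holds the affinity of its probes and is not scaled for length, so an order of rows is not an order of transcript amounts. Because the scanner background was not used here, the rows of 101 genes of skin and hair, 84 keratin-associated proteins (KRTAP) and 17 late cornified envelope proteins (LCE), served as a rough floor. Their DMSO levels had a median of 3.04 and a 95th percentile of 5.61, and ran from 1.44 to 7.59. Of the 27 HOX members, 3 were above that 95th percentile, 9 were above the 90th percentile (4.92), and 24 were above the median. A member below these marks is dim on this scale and is not shown to be silent.

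**Figure D1:**
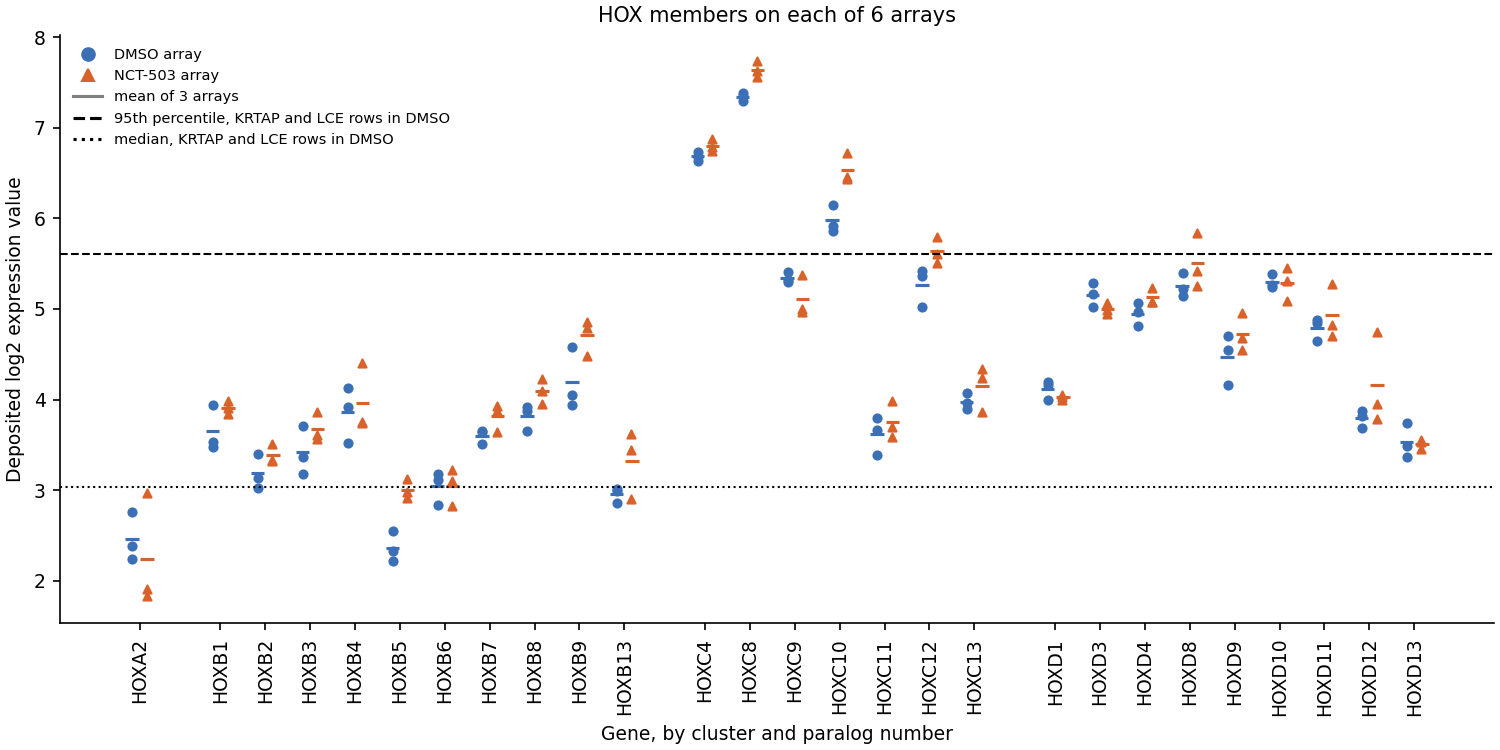
Deposited log2 value (y axis) of the 27 HOX members (x axis, by cluster and paralog number) on each DMSO array (circles) and NCT-503 array (triangles), with short lines at the mean of 3 arrays, and the 95th percentile (dashed, 5.61) and median (dotted, 3.04) of KRTAP and LCE rows in DMSO. HOXC8, HOXC4 and HOXC10 are the 3 members above the dashed line in DMSO, and HOXB5 and HOXA2 are the lowest.

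HOXC8, a factor of the thoracic region, had values of 7.29, 7.38 and 7.35 on DMSO arrays a, b and c, brighter than 82.4% of all genes tested. HOXC4, a factor of the cervical region, had values of 6.64, 6.73 and 6.68, brighter than 74.2% of genes. In the reference annotation the HOXC4 model also spans HOXC5 and HOXC6, so this row may hold signal from them. HOXC10, a factor of the lumbar region, had values of 5.86, 5.92 and 6.15, brighter than 64.1% of genes. The ranges of these 3 members did not overlap on the DMSO arrays.

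The remaining HOXC genes fell into 2 steps. HOXC9 (5.34 ± 0.06, mean ± SD, n = 3) and HOXC12 (5.27 ± 0.21) lay between the 90th and 95th percentile of the floor rows and differed by less than the spread of HOXC12. The posterior genes HOXC13 (3.98 ± 0.09) and HOXC11 (3.62 ± 0.21) were much dimmer, although HOXC11 lies between HOXC10 and HOXC12 in the cluster. Across the 7 HOXC genes the median DMSO level was 5.34.

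HOXD rows formed a narrower band with a median of 4.79 over 9 genes. The brightest were HOXD10 (5.30 ± 0.07, n = 3), HOXD8 (5.26 ± 0.13) and HOXD3 (5.16 ± 0.13), whose ranges over the DMSO arrays overlap, and HOXD4 followed at 4.94 ± 0.13. HOXD11 (4.79 ± 0.12) and HOXD9 (4.47 ± 0.28) stood in the middle of the band, and HOXD1 (4.11 ± 0.10), HOXD12 (3.79 ± 0.09) and HOXD13 (3.54 ± 0.19), at or next to the ends of the cluster, were lowest. The second HOXD4 row had a DMSO mean of 4.31, so the 2 rows of this gene differ by more than the spread between arrays.

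HOXB rows were dim throughout, with a median of 3.51 over 10 genes and none above the 90th percentile of the floor rows. HOXB9 was highest at 4.19 ± 0.35 (n = 3), followed by HOXB4 (3.86 ± 0.31), HOXB8 (3.82 ± 0.14), HOXB1 (3.65 ± 0.25) and HOXB7 (3.60 ± 0.08), where each gene's range overlaps that of the next. HOXB3 (3.42 ± 0.27), HOXB2 (3.19 ± 0.19), HOXB6 (3.04 ± 0.18) and the outlying HOXB13 (2.96 ± 0.08) came next. HOXB5 (2.37 ± 0.17) was the lowest of all 27 members, with HOXA2 (2.46 ± 0.27) beside it.

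By paralog number, the members from group 8 upwards (15 genes) had a median DMSO level of 4.47 and those of groups 1 to 7 (12 genes) one of 3.62. Groups 1 to 7 hold HOXA2 and most of the dim HOXB genes, so these medians also differ in cluster make-up. Whether level follows paralog number within a cluster was not tested. Paralogs of the same number differed widely. In group 8 HOXC8 stood at 7.34, HOXD8 at 5.26 and HOXB8 at 3.82. In group 4 the levels were 6.68 for HOXC4, 4.94 for HOXD4 and 3.86 for HOXB4, and in group 10 they were 5.98 for HOXC10 and 5.30 for HOXD10. HOXC was the brightest and HOXB the dimmest in each of the 4 groups that hold HOXB, HOXC and HOXD members (groups 4, 8, 9 and 13), down to HOXC13 at 3.98, HOXD13 at 3.54 and HOXB13 at 2.96.

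With NCT-503, 3 of the 27 members rose: HOXC10 by 1.47-fold, HOXC8 by 1.23-fold and HOXB5 by 1.56-fold. None fell. Over all genes tested, 16.4% were called higher and 17.1% lower, and the share of HOX members called higher was 11.1%. Among the 18 members in the lower part of the array by mean level, 1 was called higher (HOXB5) and 0 lower, where 9.69% and 7.13% of the 7390 genes at such levels were called. HOXB5 and HOXC10 also passed an adjusted p under 0.01, as 8.3% of all genes did in this direction. A call is an adjusted p under 0.05 (limma, Benjamini-Hochberg over 14779 genes). At an unadjusted p under 0.05, 6 members were higher and 0 lower. All genes called, 16.4% higher and 17.1% lower, also pass this looser mark. The full share of genes that pass it was not computed, so the count of 6 has no matched background. Of all calls 48.8% were higher, against 60.4% after centring on the 75th percentile.

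HOXC10 had values of 5.86, 5.92 and 6.15 in DMSO and 6.46, 6.72 and 6.43 with NCT-503. Every treated array lies above every vehicle array. The change was 0.56 ± 0.12 (log2, SE, adjusted p = 0.0096) and kept its call under every alternative that was run, with adjusted p from 0.00108 to 0.0372. In the annotation it overlaps one other gene, HOXC-AS3, which was not analysed here.

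HOXC8 rose from 7.29, 7.38 and 7.35 to 7.56, 7.62 and 7.73. All NCT-503 arrays lie above all DMSO arrays, by a smaller step than for HOXC10. The change was 0.30 ± 0.08 (SE, adjusted p = 0.0246). The call was lost without DMSO a (adjusted p = 0.0812), DMSO c (0.0678), NCT-503 b (0.0597) or NCT-503 c (0.0599), with changes from 0.25 to 0.31.

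HOXB5, a factor of the vagal and cervical region, had values of 2.22, 2.55 and 2.33 in DMSO and 3.13, 2.98 and 2.92 with NCT-503. Both groups lie below the median of the floor rows (3.04), apart from NCT-503 a. The change was 0.64 ± 0.11 (SE, adjusted p = 0.00401), the largest among the members, and it held in each leave-one-out fit, but it is a change between dim values. Of the genes that share its locus, HOXB-AS3, an antisense RNA whose model overlaps HOXB5 and HOXB6, was called higher by 0.23 ± 0.07 (adjusted p = 0.0412), whereas HOXB6 had a change of 0.0068 (95% interval -0.31 to 0.32). The HOXB-AS3 call was lost without any 1 of the 6 arrays (adjusted p from 0.0717 to 0.117).

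A pair of members came close to the threshold. HOXC12 went from 5.42, 5.02 and 5.37 to 5.50, 5.61 and 5.80, a change of 0.37 ± 0.13 (adjusted p = 0.0680) with groups that do not overlap. HOXB9 went from 4.05, 4.58 and 3.94 to 4.48, 4.86 and 4.79, a change of 0.52 ± 0.18 (adjusted p = 0.0670) with groups that overlap through DMSO b. Both were called with arrays centred on the median (adjusted p = 0.0497 and 0.0484) or on the 75th percentile (0.0474 and 0.0397). HOXB8, with a change of 0.27 ± 0.11 (adjusted p = 0.0938), was called under the second of these (0.0322). HOXC12 and HOXB9 were also called with trend and robust moderation (0.0393 and 0.0351). The same held among genes above the 25th percentile of mean level (0.0466 and 0.0473), but not after cyclic loess (0.0694 and 0.0954). With quantile normalization HOXC12 was called (0.03545) and HOXB9 was not (0.0718). HOXC12 was also called among genes above the 50th percentile of mean level (0.0254). Without DMSO b the change of HOXC12 was 0.24 (adjusted p = 0.160) and that of HOXB9 0.72 (0.0109). Without DMSO c that of HOXB9 was 0.39 (0.180).

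**Figure D2:**
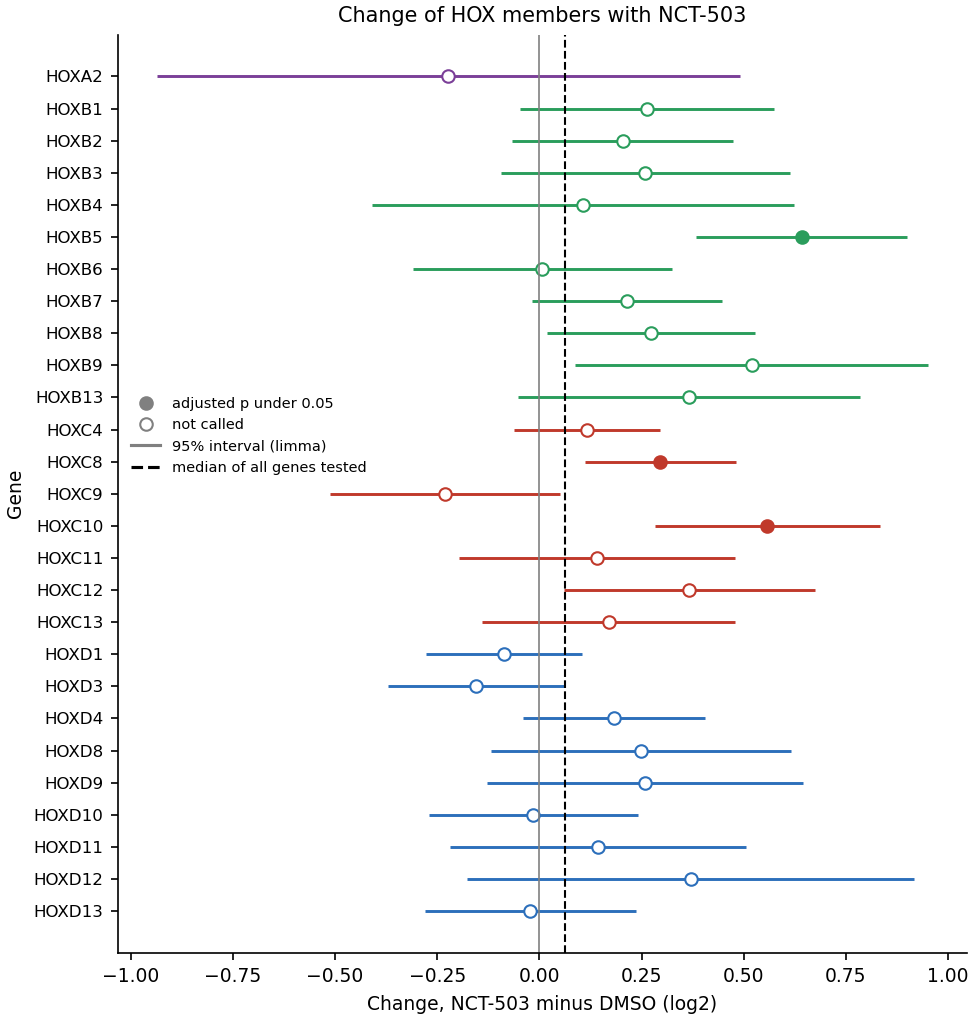
Change with NCT-503 (x axis, NCT-503 minus DMSO, log2) for each HOX member (y axis), with limma's 95% interval as a bar, filled points where the adjusted p is under 0.05, and the median change of all genes tested as a dashed line (0.06). The 3 filled points are HOXB5, HOXC8 and HOXC10, and no interval lies wholly below 0.

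The groups did not overlap in 7 members, all with higher values under NCT-503: HOXB5, HOXB8, HOXC4, HOXC8, HOXC10, HOXC12 and HOXD4. Over all genes 25.4% separate in this direction and 22.4% in the other, and among genes in the lower part by level 18.3% separate upwards. The HOX count (7 of 27) is near the first of these shares. HOXC4, the second brightest member, went from 6.64, 6.73 and 6.68 to 6.78, 6.87 and 6.74, a change of 0.12 (95% interval -0.06 to 0.30, adjusted p = 0.280). For HOXD4 the change was 0.18 (adjusted p = 0.182), and in its second row it was -0.002.

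By cluster, all 10 HOXB members had a change above 0, with a median of 0.26, but HOXB4 and HOXB6 do not hold that sign. Without NCT-503 a, 8 of 10 were above 0 (HOXB4 at -0.11, HOXB6 at -0.019), and HOXB6 was also below 0 without DMSO c or NCT-503 b, with quantile normalization and with cyclic loess, as was HOXB4 without DMSO a (-0.06). In HOXC 6 of 7 were above 0 (median 0.17) and in HOXD 5 of 9 (median 0.14), and HOXA2 was at -0.22. The HOXD count ran from 4 without NCT-503 a to 7 with either centring and without DMSO a or NCT-503 c. These are counts of measured values, most of which did not pass the test, and the difference between clusters was not tested. With arrays centred on the 75th percentile every change is larger by 0.07, which moves the median of all genes from 0.06 to 0.13 and that of the HOX members from 0.20 to 0.27.

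In HOXC the exception was HOXC9, a thoracic factor next to HOXC8 in the cluster. It stood at 5.32, 5.30 and 5.41 in DMSO and 5.005, 5.37 and 4.96 with NCT-503, so 2 treated arrays lie below and 1 within the range of DMSO. The change was -0.23 (95% interval -0.51 to 0.05, adjusted p = 0.182), and it passed only without NCT-503 b (-0.36, adjusted p = 0.0274). Its neighbours HOXC8 and HOXC10 were called higher, while the difference in response between these genes was not tested.

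No HOXD member was called. HOXD10 stood at 5.38, 5.24 and 5.27 in DMSO and 5.31, 5.45 and 5.08 with NCT-503, a change of -0.015 (95% interval -0.27 to 0.24) whose sign turned with the centring of the arrays. HOXD12 had the largest change of the cluster, 0.37 (95% interval -0.18 to 0.92), which rests on NCT-503 a: its values were 3.69, 3.81 and 3.87 in DMSO and 4.74, 3.95 and 3.79 with NCT-503. NCT-503 a was the highest treated array in 5 of the 9 HOXD members, among them HOXD8 (5.84 against 5.42 and 5.26) and HOXD11 (5.27 against 4.83 and 4.70). HOXD3 (-0.16), HOXD1 (-0.09) and HOXD13 (-0.02) had values below 0 and HOXD8 (0.25) and HOXD9 (0.26) above. Without NCT-503 a the change of HOXD8 was 0.081, that of HOXD12 0.080 and that of HOXD11 -0.025 in place of 0.14. HOXD13 was above 0 with either centring and without DMSO a (0.084) or NCT-503 c.

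Of the HOXB members not yet described, HOXB13 (0.37, adjusted p = 0.159), HOXB1 (0.26, 0.169), HOXB3 (0.26, 0.229), HOXB7 (0.21, 0.142) and HOXB2 (0.20, 0.217) shared a small positive value, and HOXB4 stood at 0.11 (0.742). HOXB13 was called without NCT-503 b (0.58, adjusted p = 0.00861) and HOXB1 without DMSO a (0.41, adjusted p = 0.0217). In HOXC, HOXC13 stood at 0.17 (adjusted p = 0.364) and HOXC11 at 0.14 (0.488), and HOXC13 was called without NCT-503 c (0.31, adjusted p = 0.0489). Among the members not called, the 95% interval was widest for HOXA2 (-0.94 to 0.49) and narrowest for HOXC4.

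The median change differed between levels, in no single direction. In 10 equal bins of mean level, all genes tested had median changes of 0.08 to 0.12 in the lowest 4 bins and of -0.05 in bins 7 and 8, while the brightest bins 9 and 10 stood at -0.0084 and 0.07. Among the 7390 genes in the lower part by level, 66.9% of genes had a change above 0, against 58.2% of all genes and 77.8% (21 of 27) of the HOX members. The median change was 0.10 in that lower part, 0.06 over all genes and 0.20 over the HOX members, of which 18 lie in the lower part (median 0.21) and 9 in the upper part (median 0.18). The floor rows had a median change of 0.06. The HOX median fell to 0.13 without NCT-503 a and to 0.14 without DMSO a, and after cyclic loess, which evens the arrays along the level, it was 0.16 against 0.01 for all genes. The calls of HOXB5, HOXC8 and HOXC10 held after that step.

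**Figure D3:**
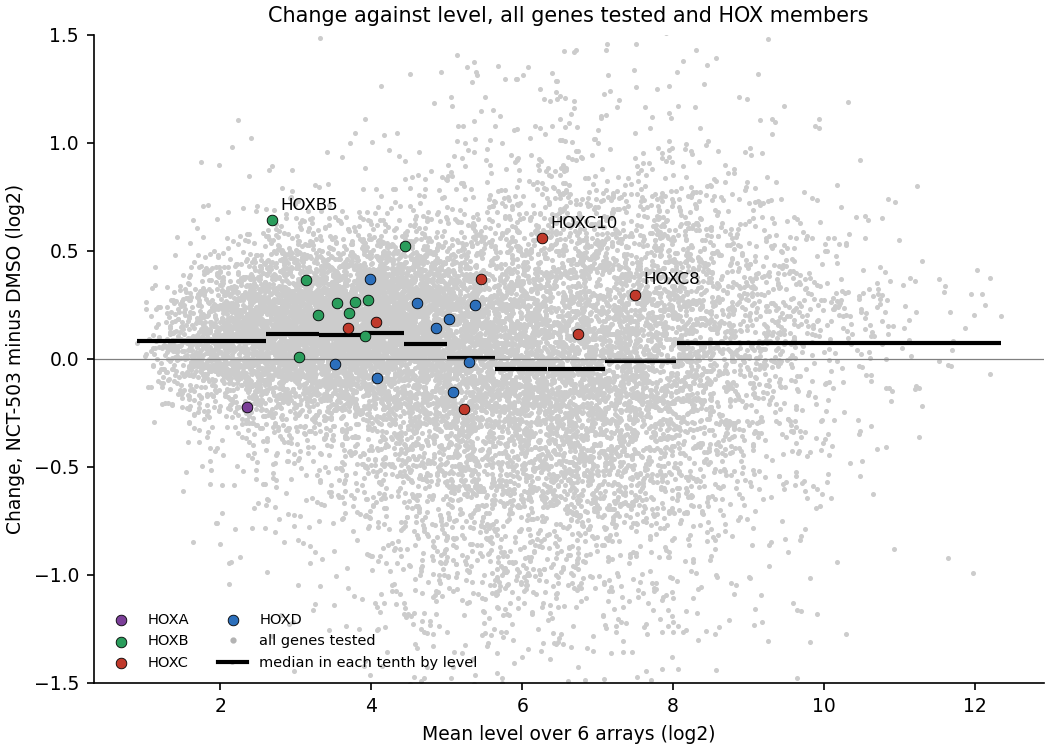
Change with NCT-503 (y axis, log2) against mean level over the 6 arrays (x axis, log2) for all 14779 genes tested (grey; 199 genes beyond the plotted range of 1.5 are not drawn) and the HOX members (coloured by cluster), with black bars at the median change in each of 10 bins of genes by level. Those medians run from -0.05 to 0.12, and 21 of the 27 HOX members lie above 0, including the labelled HOXB5, HOXC10 and HOXC8.

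Inside the clusters lie microRNA genes of the miR-10 and miR-196 families and miR-615, some of which repress HOX messages. Of 8 fixed microRNA loci 3 had a named row. Of these 3, 1 was called higher and 0 lower, where 16.4% and 17.1% of all genes were. Their mature sequences from RefSeq (GRCh38.p14) are shown with the seed, bases 2 to 8, in capitals, because the 2 miR-196a loci give the same guide strand and only their passenger strands differ. The guide strand is encoded at chr17:48632532-48632553 (minus strand), beyond HOXB9, and at chr12:53991762-53991783 (plus strand), between HOXC10 and HOXC9.
hsa-miR-196a-5p: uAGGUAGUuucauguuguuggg
hsa-miR-196a-1-3p: cAACAACAuuaaaccacccga
hsa-miR-196a-3p: cGGCAACAagaaacugccugag
hsa-miR-615-3p: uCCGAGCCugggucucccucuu

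The row of MIR196A1, the locus beside HOXB9, rose from 2.65, 2.51 and 2.49 to 3.57, 3.38 and 2.94, a change of 0.74 ± 0.16 (SE, adjusted p = 0.00994). The groups do not overlap, and the DMSO values lie below the median of the floor rows. MIR196A2, the locus beside HOXC10, had a change of 0.33 (adjusted p = 0.0676) and MIR615 one of 0.10 (adjusted p = 0.443). A whole-transcript array row of this kind need not measure the mature microRNA. The amount of miR-196a itself was not measured here.

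Of 18 fixed noncoding RNAs of the HOX loci 9 were measured, 1 rose (HOXB-AS3, above) and 1 fell. Of all genes tested, 16.4% were called higher and 17.1% lower. HOTAIR, a long noncoding RNA transcribed opposite to the HOXC genes and overlapping HOXC11, went from 4.73, 4.81 and 4.805 to 4.47, 4.52 and 4.20, a change of -0.38 ± 0.10 (adjusted p = 0.0243). Its call was lost without DMSO a, b or c (adjusted p from 0.0530 to 0.0711). HAGLR, which overlaps HOXD1, had a change of -0.40 and did not pass (adjusted p = 0.0839). In all, 14 of the 27 HOX gene models overlap another annotated gene, in 10 cases one with a row here. Whether the rows of overlapping genes keep them apart was not tested.

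Genes that act with HOX proteins or on their loci were called in both directions. Of 11 TALE homeodomain cofactors 7 were measured, with 2 higher and 1 lower, a count near the 33.5% of all genes called in either direction (16.4% higher, 17.1% lower), against which the lists that follow are also to be read. The shares called differ by level, from 4.74% higher and 1.96% lower in the dimmest of 10 bins to 33.0% and 24.3% in the brightest. MEIS2, the brightest of the cofactors, fell by 1.24 ± 0.07 (from 9.22 to 7.98, adjusted p = 5.43e-05). Its paralog MEIS1 rose by 0.55 ± 0.11 (1.47-fold, from 6.22 to 6.77) and PBX3 by 0.41 ± 0.07 (1.32-fold, from 6.86 to 7.27). PBX4, MEIS3, PKNOX1 and TGIF1 did not pass (changes from -0.12 to 0.20).

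Among 23 Trithorax and other activators of HOX loci 12 were measured, 1 rose and 3 fell. The histone H3K4 methyltransferases KMT2D and KMT2C fell by 0.83 ± 0.07 and 0.47 ± 0.08, and the H3K36 methyltransferase NSD1 by 0.42 ± 0.08. KDM6B, which removes the Polycomb mark, rose by 0.31 ± 0.10 (SE; adjusted p = 0.0438). That call did not hold when DMSO b or c, or NCT-503 a or b, was left out (0.0977 to 0.129). The 8 members not called, among them KMT2B (0.08), WDR5 (-0.06) and MEN1, had changes from -0.18 (MEN1) to 0.16 (ELL). The median change of this list was -0.03, against 0.06 over all genes, and it was above 0 with either centring (0.02 and 0.04) and without NCT-503 b (0.01).

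Of 34 Polycomb genes 26 were measured, 5 rose and 7 fell, beside 16.4% and 17.1% of all genes. All 26 lie above the 50th percentile of mean level, where calls are more frequent. In bins 6 to 10 of level, 14.6% to 33.0% of genes were called higher and 23.2% to 31.3% lower. The Polycomb counts were 6 and 9 with trend and robust moderation, and 6 and 10 among genes above the 50th percentile of mean level. For the list, the median change was also -0.03 (above 0 with either centring, quantile normalization or cyclic loess, at 0.01 to 0.04). In the first Polycomb complex, which marks histone H2A, PCGF1 rose 2.56-fold (1.36 ± 0.10), RYBP 2.15-fold (1.11 ± 0.08), PHC1 1.53-fold and PCGF2 1.44-fold, while PCGF3 fell by 0.70 ± 0.07 and KDM2B by 0.49 ± 0.07. ASXL2, a partner of the enzyme that removes the H2A mark, fell by 0.98 ± 0.08. PHF1, a partner of the second complex, rose by 0.47 ± 0.08. In the second complex, which methylates histone H3, RBBP7 fell by 0.68 ± 0.07, RBBP4 by 0.58 ± 0.08, SUZ12 by 0.42 ± 0.10 and MTF2 by 0.41 ± 0.09, and its catalytic subunit EZH2 stood at -0.26 (adjusted p = 0.0538). Of the same complex and its partners, EZH1 (0.17), AEBP2 (0.08) and PHF19 (-0.03) were not called, and PHF1, above, rose. SUZ12 missed the threshold when 1 of DMSO c and the NCT-503 arrays a and b was left out (0.0543 to 0.0647).

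In the retinoic acid pathway only 4 of 23 listed genes were measured, and all 4 were called, where 33.5% of all genes were. STRA6, which brings retinol into cells, rose by 0.92 ± 0.10 (1.89-fold), CRABP2, which carries retinoic acid to its receptors, by 0.78 ± 0.11 (1.72-fold) and the retinal reductase DHRS3 by 0.37 ± 0.08 (1.29-fold). RDH10, which oxidises retinol towards retinoic acid, fell by 1.11 ± 0.14. The receptors and the CYP26 and ALDH1A enzymes were not analysed here, and retinoic acid was not measured.

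Among 15 upstream regulators and sister homeobox genes 12 were measured, with 2 higher and 1 lower. CDX1, an activator of HOX clusters, rose by 0.40 ± 0.10 and MNX1, a motor neuron homeobox gene, by 0.44 ± 0.12, while GDF11, a signal for posterior HOX genes, fell by 0.28 ± 0.08. CDX1 lost its call when array a or b of either group was left out (adjusted p from 0.0512 to 0.0589), MNX1 without any DMSO array or NCT-503 a (0.0516 to 0.0831), and GDF11 without any array but NCT-503 a (0.0596 to 0.111). GDF11 also lost its call with either centring (0.0587 and 0.0802) and with quantile normalization (0.0526), and MNX1 with cyclic loess (0.0516). The median change of the list, 0.24, stands beside 0.20 for the HOX members, and apart from GDF11 (7.66) its members had DMSO levels of at most 4.84.

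**Figure D4:**
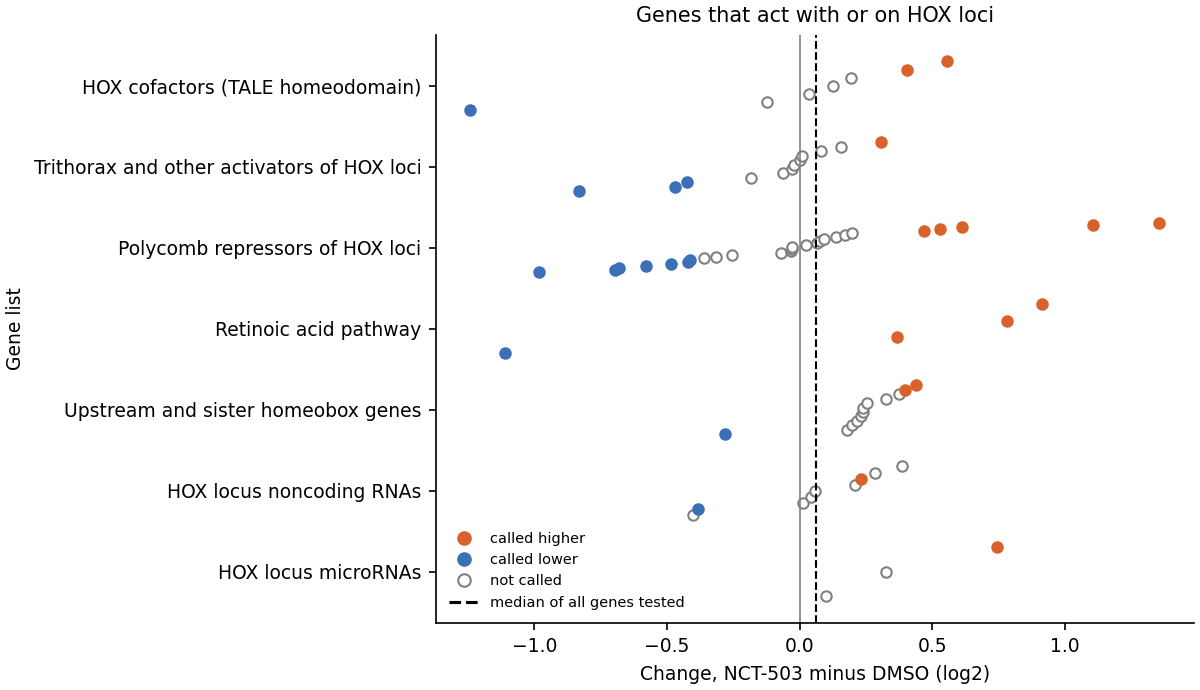
Change with NCT-503 (x axis, NCT-503 minus DMSO, log2) of the measured members of 7 fixed gene lists (y axis; points are spread vertically within a list by their order), coloured where the adjusted p is under 0.05, with the median of all genes tested dashed (0.06). MEIS2 (-1.24) and RDH10 (-1.11) lie farthest to the left and PCGF1 (1.36) and RYBP (1.11) farthest to the right.

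Promoter sequences were looked at for what members share. RefSeq's table (GRCh38.p14) held 11 of the 27 members: HOXA2, HOXB1, HOXC4 and 8 HOXD genes. The called members HOXB5, HOXC8 and HOXC10 were not among them. In the 250 bases before the start, these promoters held a median of 21 CpG dinucleotides, against 11 over 27305 promoters, with 31 in HOXD1 and 4 in HOXD4. Outside HOXD, HOXC4 held 14, HOXA2 8 and HOXB1 7, so the median is mainly one of HOXD. The E-box CACGTG, the site that MYC family proteins bind, was present in 5 of the 11, HOXD1, HOXD3, HOXD10, HOXD11 and HOXD13, and in 6.49% of all promoters. The E-box itself holds a CpG, so all promoters, with fewer CpGs, are not a matched background for this share. MYCN, a member of that family, had no named row here. BE(2)-C is known for amplified MYCN, which is why these windows are shown, each on the plus strand with the E-box in capitals.
HOXD1, chr2:176188603-176188632: gccggccagcgcCACGTGgccgcccccgcc
HOXD3, chr2:176157248-176157277: acaagtcccgacCACGTGattggcgaaata
HOXD10, chr2:176116660-176116689: caggctctggagCACGTGacccgagaggag
HOXD11, chr2:176107178-176107207: tcttcatggcgtCACGTGacataattacca
HOXD13, chr2:176092578-176092607: cgttcctaccccCACGTGgccgcgcgcagc

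The first base of the E-box lay 53, 47, 106, 90 and 131 bases before the start in HOXD1, HOXD3, HOXD10, HOXD11 and HOXD13. These 5 genes had changes of -0.09, -0.16, -0.02, 0.14 and -0.02, and none was called. A match is a description of letters, not a bound site. In all 10 motifs were searched on both strands. CCAAT was present in 9 of the 11 (33.0% of all promoters), the GC box GGGCGG in the same 5 genes as the E-box (42.3%) and the PBX-HOX composite TGATNNAT in 3, HOXA2, HOXB1 and HOXD11 (6.69%). TATAAA was found in HOXD13 (11.1%), the CDX motif TTTATG in HOXD8 (10.0%) and the MEIS motif TGACAG in HOXA2 (13.1%). The retinoic acid receptor core motif AGGTCA (12.1%), its direct repeat with a spacer of 5 bases (0.00366%) and the ATF4-CEBP composite TGATGNAAT (0.916%) were in none of these 11 windows.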

How the data were processed

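The authors deposited 1 table of log2 values, 1 row per transcript and 1 column per array (31135 rows, 6 arrays, 3 per group). Per the submitters' processing notes the arrays were processed with Partek; how background and arrays were normalized is not stated. The log2 scale was read from the values, which run from 0.578 to 13.6. Platform annotation named 15098 rows, matched by Entrez identifier to RefSeq (GRCh38.p14); the row with the highest mean stood for a gene. Changes are NCT-503 minus DMSO from limma 3.58.1 in R 4.3.3 (lmFit, eBayes, no covariates, two-sided, Benjamini-Hochberg over 14779 genes), tested on simulated data. Members and lists were chosen with earlier results of these data known. Every HOX member is named. Per list, the rule names up to 4 called genes with the largest change; others were named after their values were seen. KRTAP and LCE were the families of the planned floor that had named rows. The replicate letters a, b and c were not used to pair the arrays in the main fit. Same-letter arrays deviated together with correlations of 0.00263 to 0.0375, and arrays of different letters with -0.0329 to 0.0279. Such values, from 3 arrays per group, cannot exclude that arrays of one letter were set up together. Protein sequences were not used here.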

Additional observations from a re-analysis of the deposited data

How the results depend on the processing

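Under the 16 alternatives HOXC10 kept its call in 16, HOXB5 in all 14 that tested it, and HOXC8 in 11; the remaining losses of HOXC8 were 4 arrays left out, given above, and the threshold of 0.01 (adjusted p = 0.0246). The count of members called higher was 5 with trend and robust moderation, 5 with median centring and 6 with centring on the 75th percentile, against 3, and lay between 2 and 4 when 1 array was left out. The replicate block, with the letters a, b and c, gave 4 members higher, adding HOXB9 (adjusted p = 0.0385), while KDM6B (0.0648), HOXB-AS3, GDF11, HAND2 and ISL1 lost their calls. No member was called lower except without NCT-503 b, where HOXA2 (-0.59) and HOXC9 were, so that count ranged from 0 to 2. The sign of HOXD10 turned with median centring (0.027), centring on the 75th percentile (0.053) and quantile normalization (0.067), and when 1 array was left out, where its change ran from -0.100 without NCT-503 b to 0.084 without NCT-503 c. The median change over members ranged from 0.13 to 0.27. With the 90th percentile of the floor rows in place of the 95th, 9 members in place of 3 were above it, and with the 99th, 2. Cyclic loess was added after seeing the data. The cause of these differences was not tested. Signal over scanner background was not analysed here.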
